A study of Mus musculus with 20 samples.

Results

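The metabotropic glutamate receptors measured here are the products of 6 genes (Grm2, Grm3, Grm4, Grm5, Grm7 and Grm8), taken by name from the 19463 genes of an RNA-seq table of mouse whole brain. All mice were male and on the C57BL/6J background, and each brain was taken at postnatal day 21 (P21, 3 weeks) or 70 (P70, 10 weeks). There were 4 groups of 5 mice, 20 in all: wild-type (WT) and Katnal2-knockout (KO) mice at each age. Katnal2 encodes a katanin-like ATPase related to microtubule severing and is associated with autism spectrum disorder. KO mice were homozygous for a germline deletion of Katnal2 exon 3, made from a EUCOMM targeted allele with Flp recombinase and then cell-permeable Cre on early embryos, so all cells of the body carried it and all KO mice came from 1 line.

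Metabotropic glutamate receptors are dimeric G-protein-coupled receptors that respond to synaptic glutamate more slowly than the ion channel receptors do. Group I receptors, which include Grm5, sit mainly on the postsynaptic side and activate phospholipase C through Gq. Group II (Grm2, Grm3) and group III (Grm4, Grm7, Grm8) receptors couple to Gi/o, lower cyclic AMP and, at many presynaptic terminals, reduce transmitter release.

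The 6 genes lie on 5 chromosomes (GRCm38, GENCODE M21). Grm5 (ENSMUSG00000049583) spans chr7:87584168-88134907 on the plus strand, Grm2 (ENSMUSG00000023192) chr9:106643095-106656082 on the minus strand and Grm3 (ENSMUSG00000003974) chr5:9485541-9725170 on the minus strand. Of group III, Grm4 (ENSMUSG00000063239) spans chr17:27422387-27521403 on the minus strand, Grm7 (ENSMUSG00000056755) chr6:110645581-111567230 on the plus strand and Grm8 (ENSMUSG00000024211) chr6:27275119-28135178 on the minus strand. Their longest coding transcripts differed in base composition, from 42.5% GC in Grm5 to 61.7% in Grm4, with Grm8 at 45.9%, Grm3 at 47.6%, Grm7 at 47.8% and Grm2 at 56.9%. Exons of Grm2 overlap 470 bases of Gm28111 and those of Grm7 overlap 130 bases of Gm20387, both on the opposite strand. The library kit does not mark strand, so reads from these stretches cannot be assigned, although Gm20387 reached at most 71.6 normalized counts in any mouse.

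The RefSeq promoter table held 4 of the 6 genes. The start regions of the group II pair are shown because the age differences of Grm2 and Grm3 had opposite signs. Each runs 5′ to 3′ on the gene's own strand, from 250 bases before the RefSeq start to 50 after it. The windows are chr9:106656060-106656359 for Grm2 and chr5:9725303-9725602 for Grm3 (GRCm38.p6), both on the minus strand. The Grm3 window lies wholly upstream of the GENCODE M21 span given above (to 9725170), so the RefSeq and GENCODE starts of Grm3 differ. Capitals mark the GC box GGGCGG or its reverse complement CCGCCC.
Grm2: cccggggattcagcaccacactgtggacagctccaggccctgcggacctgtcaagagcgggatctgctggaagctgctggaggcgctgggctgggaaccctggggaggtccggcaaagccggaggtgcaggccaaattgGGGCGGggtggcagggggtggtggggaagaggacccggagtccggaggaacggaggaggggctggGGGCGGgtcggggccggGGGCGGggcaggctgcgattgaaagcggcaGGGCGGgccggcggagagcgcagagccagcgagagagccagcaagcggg
Grm3: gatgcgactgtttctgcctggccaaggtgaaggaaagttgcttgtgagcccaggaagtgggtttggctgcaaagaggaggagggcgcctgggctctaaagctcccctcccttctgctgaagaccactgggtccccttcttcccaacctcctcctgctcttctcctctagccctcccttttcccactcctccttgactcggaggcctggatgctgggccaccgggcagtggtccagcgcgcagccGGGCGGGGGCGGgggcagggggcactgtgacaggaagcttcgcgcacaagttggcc
The Grm2 window held 4 matches, 22 CpG dinucleotides and 72% GC, and the Grm3 window 2 adjacent matches, 11 CpG and 63.7% GC. For comparison, 35.7% of the 32851 RefSeq windows of this length held at least 1 match, the median window had 7 CpG, and the median GC content was 52.7%.

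Values are DESeq2-normalized counts, and their sum per mouse lay between 27310523 and 28423042. Levels of different genes are compared only after division by exon length (normalized counts per kb). As a check of the targeted gene, Katnal2 lay between 78.1 and 96.0 normalized counts in P21 KO and between 99.3 and 115.4 in P21 WT mice, and between 95.1 and 125.5 in P70 KO and 101.3 and 141.5 in P70 WT mice. These totals include transcript outside the deleted exon and so do not check the genotype. The replicate 5 mice of both genotypes at P70 stood apart across all genes. Their median absolute deviation from the median of the other mice of the group was 0.321 to 0.378 (log2). In the other 18 mice it was 0.0839 to 0.164. The signed deviation of the replicate 5 mice ran with transcript GC content (Spearman rho across genes 0.604 to 0.634, against -0.30 to 0.19 in the other 18). P70 results below are therefore given over all mice and, only where stated, also without these 2 mice.

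The 6 receptors differed widely in level per length, and their order was the same in all 4 groups. Grm4, a presynaptic receptor abundant in cerebellar granule cells, was highest, followed by Grm5, Grm3, Grm2, Grm7 and Grm8. Grm4 averaged 755 ± 67.3 normalized counts per kb (SD, n = 5) in P21 WT and 795 ± 36.8 in P21 KO mice, and 666 ± 24.97 and 633 ± 58.7 at P70. Its lowest mouse lay above the highest mouse of Grm5 in each group. Grm8, the least abundant, averaged 43.2 ± 2.37 per kb in P21 WT, 42.7 ± 3.20 in P21 KO, 40.6 ± 2.43 in P70 WT and 39.8 ± 1.60 in P70 KO mice. It lay below every mouse of Grm7 in each group.

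Between these ends the neighbours were less distinct. Grm5 averaged 442 ± 53.9 per kb in P21 WT and 419 ± 57.8 in P21 KO mice, and at that age it did not overlap Grm3, at 305 ± 30.9 and 303 ± 32.7. At P70 the ranges of Grm5 and Grm3 overlapped in both genotypes, but without replicate 5 they did not, with Grm5 from 483 and Grm3 up to 479.6 per kb in KO mice and from 437 and up to 419.9 in WT mice. Grm3, Grm2 and Grm7 overlapped their neighbours at P21, with Grm2 at 288.5 ± 14.2 and Grm7 at 251.8 ± 26.3 per kb in WT mice. At P70 Grm3 separated from Grm2 in WT mice, at 373 ± 60.1 against 254 ± 7.80 per kb, and in KO mice, at 382 ± 85.3 against 247 ± 19.8, they overlapped only through replicate 5. Without that mouse the lowest KO value of Grm3 was 388 and the highest of Grm2 265.5 per kb. Dividing instead by the longest coding transcript moved Grm7 above Grm3 and Grm2 at P21, at 353 against 305 and 300 per kb in WT mice.

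**Figure D1:**
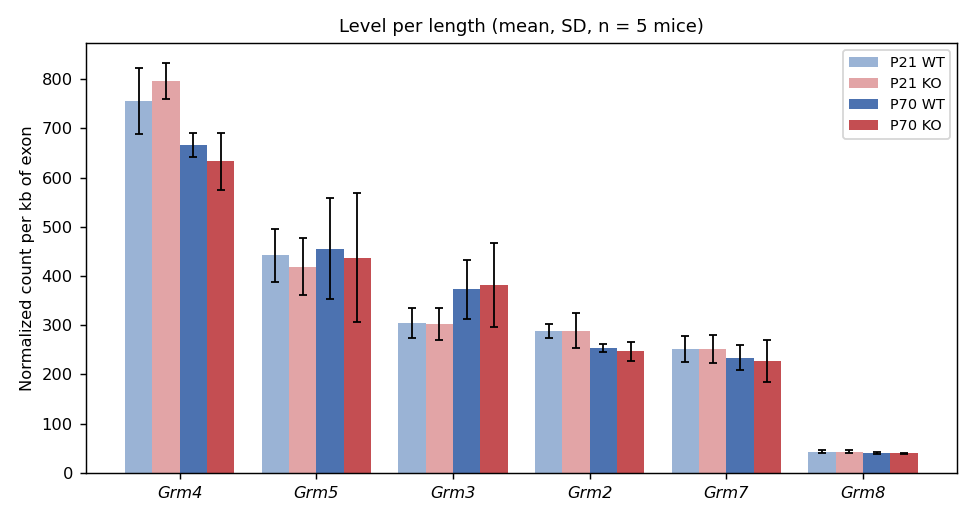
Mean normalized count per kb of exon (vertical axis) for each receptor gene in the 4 groups, with SD over 5 mice as whiskers. Grm4 is the highest and Grm8 the lowest gene in each group, and the Grm3 bars are higher at P70 than at P21 whereas the Grm2 bars are lower.

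The first question was whether loss of Katnal2 changed the transcript level of any receptor at P21 or P70. At P21 the group I receptor Grm5 stood at 4399, 4077, 3397, 4941 and 4647 normalized counts in KO mice 1 to 5 and at 5053, 4496, 3638, 4541 and 4915 in WT mice. The groups overlapped nearly throughout, and replicate 3 was the lowest mouse in both. The difference was -0.08 on the log2(value + 1) scale (95% interval -0.30 to 0.14), with an adjusted p of 1.00 in limma. In bulk tissue, fewer cells of a type and less RNA per cell cannot be told apart.

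Of the group II pair, Grm2, a presynaptic receptor that restrains glutamate release, stood at 1397, 1278, 1265, 1432 and 1706 normalized counts in P21 KO mice and at 1456, 1329, 1406, 1503 and 1366 in P21 WT mice. KO replicate 5 was the highest mouse, and the 2 group means (1416 ± 178 and 1412 ± 69.4, SD, n = 5) lay close together. Grm3, which is made by astrocytes as well as neurons, stood at 974, 941, 753, 934 and 1011 normalized counts in KO and at 1049, 918, 803, 886 and 987 in WT mice. Again the groups overlapped and replicate 3 was lowest in both. Grm2 differed by -0.0036 (95% interval -0.17 to 0.16) and Grm3 by -0.011 (-0.20 to 0.18) on the log2 scale.

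In group III, Grm4 stood at 4812, 4882, 4451, 5006 and 4619 normalized counts in P21 KO mice and at 4833, 4862, 4592, 4403 and 3877 in P21 WT mice. WT replicate 5 was the lowest of the 10 mice, and the remaining ranges overlapped. The log2 difference was 0.08 (95% interval -0.05 to 0.21; exact permutation p = 0.270, two-sided). Grm7, a presynaptic receptor with low glutamate affinity, ranged from 1252 to 1649 in KO and from 1262 to 1680 in WT mice, and Grm8 from 382 to 466 and from 402 to 456. Their log2 differences were -0.0031 (-0.19 to 0.19) and -0.019 (-0.17 to 0.13).

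None of the 6 receptors was called at P21 (limma, Benjamini-Hochberg adjusted p under 0.05 over 17610 genes), and 0% of all genes were. The smallest adjusted p of any gene was 0.181, and 429 genes had an unadjusted p under 0.05. In all 6 receptors the KO and WT ranges overlapped, against 0.46% of all genes whose ranges did not. The exact two-sided permutation p of the receptors ran from 0.270 to 0.984, where 0.00794 is the smallest that 5 mice against 5 can give.

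**Figure D2:**
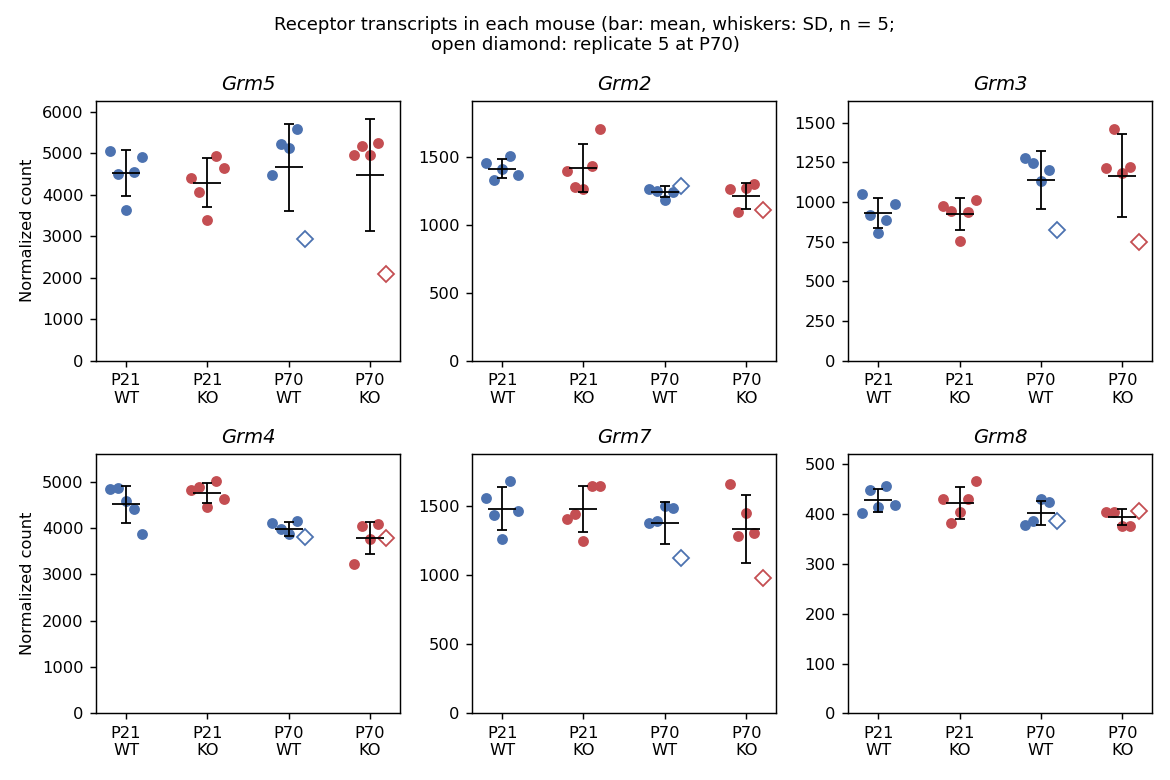
Normalized count of each receptor gene (vertical axis, from 0) in each of the 20 mice, by age and genotype, with the group mean and SD (n = 5). The open diamonds are the replicate 5 mice at P70, which are the lowest P70 mice of their genotype for Grm5, Grm3 and Grm7.

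At P70, Grm5 stood at 4954, 5177, 4953, 5239 and 2088 normalized counts in KO mice 1 to 5 and at 4481, 5216, 5119, 5597 and 2929 in WT mice. Replicate 5 was far below the others in both genotypes, and the other 4 mice of each overlapped. Over all mice the log2 difference was -0.10 with a wide interval (-0.66 to 0.46), and without replicate 5 it was -0.0022 (-0.14 to 0.13; exact permutation p = 1.00).

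Grm3 was low in the same 2 mice, at 1217, 1462, 1182, 1223 and 746 normalized counts in P70 KO and 1280, 1245, 1134, 1199 and 824 in P70 WT mice. Grm2 stood at 1265, 1096, 1271, 1299 and 1111 in P70 KO mice, with replicate 5 just above the lowest mouse. In P70 WT mice it stood at 1262, 1250, 1180, 1243 and 1281, with replicate 5 the highest. For both genes the genotypes overlapped. The KO minus WT log2 difference was 0.02 for Grm3 (-0.36 to 0.40) and -0.04 for Grm2 (-0.21 to 0.12). Without replicate 5 they became 0.06 (-0.10 to 0.22) and -0.0039 (-0.14 to 0.13).

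Grm4 stood at 3215, 4053, 3764, 4092 and 3784 normalized counts in P70 KO mice and at 4105, 3983, 3874, 4153 and 3800 in P70 WT mice. KO replicate 1 was the lowest and the other mice overlapped. Its log2 difference was -0.08 (95% interval -0.24 to 0.09; exact permutation p = 0.262), opposite in sign to that at P21. Grm7 ranged from 982 to 1660 in KO and from 1128 to 1504 in WT mice, with replicate 5 lowest in each, and Grm8 ranged from 376 to 407 and from 379 to 431. Their log2 differences were -0.06 (-0.35 to 0.23) and -0.03 (-0.20 to 0.14).

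At P70, too, limma called 0 of the 6 receptors and 0% of 17613 genes, and 199 genes had an unadjusted p under 0.05. All 6 receptors overlapped between KO and WT mice, as did all but 0.193% of genes, and the exact permutation p ran from 0.262 to 0.905. Without the replicate 5 mice limma again called none of the 6 and 0.00567% of genes, the ranges of all 6 overlapped, against 2.12% of genes whose ranges did not, and the widest of the 95% intervals, those of Grm7 and Grm8, ran from -0.19 to 0.15 and from -0.22 to 0.11.

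**Figure D3:**
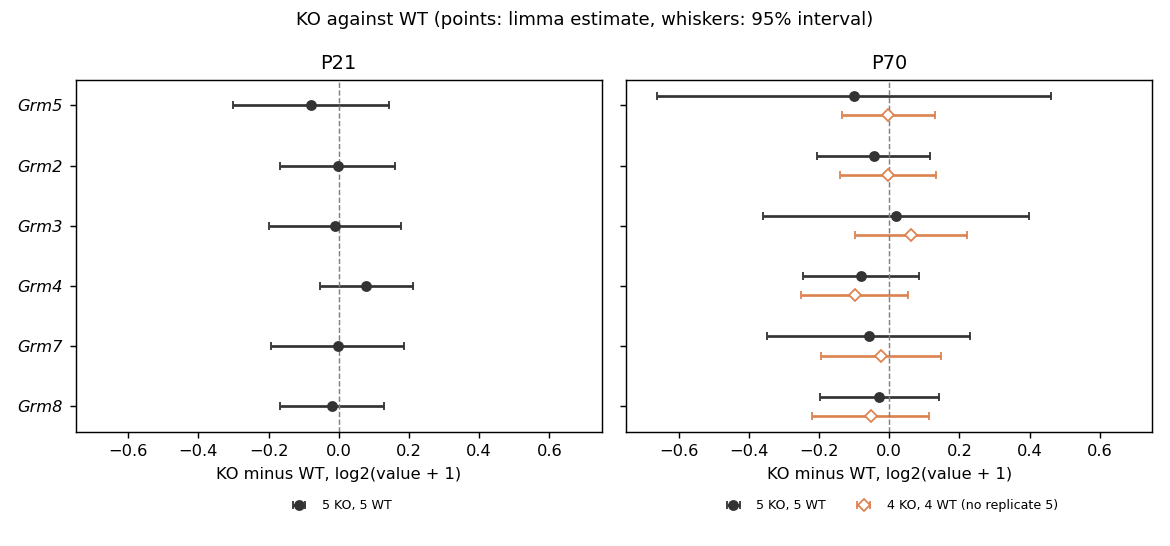
KO minus WT difference of each receptor on the log2(value + 1) scale (horizontal axis), with the 95% limma interval, at P21 and at P70. All 6 intervals at each age include 0, and the Grm5 interval at P70 narrows from -0.66 to 0.46 to -0.14 to 0.13 without the replicate 5 mice.

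The second question was how receptor levels at P70 differed from those at P21 within each genotype. Grm4 fell in KO mice. Its mean was 4754 ± 220.1 normalized counts (SD, n = 5) at P21 and 3781 ± 351 at P70, and the highest P70 mouse (4092) lay below the lowest P21 mouse (4451). The fall was 1.26-fold (log2 difference -0.33, SE 0.07, adjusted p = 0.00269 in limma). In WT mice Grm4 averaged 4514 ± 402 at P21 and 3983 ± 149 at P70, and here the ages overlapped, with WT replicate 5 of P21, at 3877, among the P70 mice. The WT difference was -0.18 (SE 0.07, adjusted p = 0.111), and without that mouse it was -0.23 (adjusted p = 0.0317).

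A call in KO and none in WT mice does not show that the genotypes differed. The age by genotype interaction of Grm4 was -0.16 (95% interval -0.36 to 0.05, unadjusted p = 0.123, limma adjusted p = 1.00). The summed level of 8 cerebellar granule cell markers moved in the same direction as Grm4. It ranged from 23659 to 30355 in P21 WT and from 24590 to 29014 in P21 KO mice, and from 21549 to 25135 and from 19067 to 24584 at P70. All 8 markers were at 10 or more in every mouse. Other lists shifted more with age. Summed mature oligodendrocyte markers ranged from 396421 to 581254 over the P21 mice and from 152854 to 200810 over the P70 mice, those of oligodendrocyte precursors from 9504 to 12708 and from 5240 to 6885, and those of blood from 12059 to 61305 and from 6987 to 13117. The part of these shifts in the age results of Grm4 and the other receptors was not tested.

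The age differences of Grm3 and Grm2, of the same group, had opposite signs in both genotypes, and over all mice neither gene was called. Grm3 averaged 929 ± 94.4 normalized counts in P21 WT and 923 ± 99.7 in P21 KO mice, and 1136 ± 183 and 1166 ± 260.1 at P70. Over all mice its difference was not called in either genotype (WT 0.28, adjusted p = 0.244; KO 0.31, adjusted p = 0.186 in limma). Without the replicate 5 mice every P70 mouse lay above every P21 mouse in both genotypes, and Grm3 rose 1.31-fold in WT (log2 0.39, SE 0.09, adjusted p = 0.00313) and 1.38-fold in KO mice (log2 0.46, SE 0.09, adjusted p = 0.000683). The call in KO mice turned on P70 KO replicate 5 alone, without which it was 0.46 (adjusted p = 0.00884).

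The summed level of 10 astrocyte markers overlapped between the ages, from 35268 to 43444 over the P21 mice and from 34773 to 41501 over the P70 mice, and it was 34773 and 36652 in the 2 replicate 5 mice. All 10 markers were at 10 or more normalized counts in every mouse.

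Grm2 averaged 1412 ± 69.4 and 1416 ± 178 normalized counts in P21 WT and KO mice and 1243 ± 38.2 and 1208 ± 96.8 at P70. In WT mice the ages did not overlap, with 1281 the highest P70 and 1329 the lowest P21 mouse. In KO mice they overlapped only at 1265 to 1299. Its differences of -0.18 in WT (SE 0.07, adjusted p = 0.127) and -0.22 in KO mice (SE 0.07, adjusted p = 0.0577) were not called by limma. The KO value passed the threshold when P21 KO replicate 2 was left out (-0.26, adjusted p = 0.0442) or replicate 3 (-0.26, adjusted p = 0.0363).

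The ratio of Grm3 to Grm2 per kb within each mouse describes the pair, with no test. Its median was 1.11 in P21 WT and 1.05 in P21 KO mice, with no mouse above 1.18. At P70 the median was 1.55 in WT and 1.51 in KO mice, and without replicate 5 the lowest mouse was 1.49. The replicate 5 mice themselves had ratios of 1.03 in WT and 1.08 in KO, within the P21 range.

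Grm5, Grm7 and Grm8 were not called in either genotype. Grm5 differed by 0.02 in WT and by -0.0018 in KO mice over all mice, and by 0.18 (adjusted p = 0.210) and 0.25 (adjusted p = 0.0666 in limma) without replicate 5. Without it the lowest P70 KO mouse, at 4953, lay just above the highest P21 KO mouse, at 4941. Grm7 differed by -0.11 (95% interval -0.35 to 0.14) in WT and -0.16 (-0.41 to 0.08) in KO mice. Without replicate 5 its differences were -0.035 (-0.22 to 0.15) and -0.055 (-0.24 to 0.13). Over all mice Grm8 differed by -0.09 (-0.23 to 0.05) in WT and -0.10 (-0.24 to 0.04) in KO mice.

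In total, limma called 0 of 6 receptors with age in WT mice, where 11.1% of 17637 genes were called (5.53% higher, 5.62% lower), and 1 of 6 (Grm4) in KO mice, where 11.9% were (5.47% higher, 6.4% lower). In KO mice 965 of the genes called were higher and 1129 lower, and with each mouse centred on its median 1272 were higher and 932 lower. Ranges did not overlap for 1 receptor in each genotype (Grm2 in WT, Grm4 in KO), against 10.8% and 10.9% of all genes. Without the replicate 5 mice limma called 1 receptor in WT (Grm3) and 2 in KO mice (Grm3 and Grm4), where 21.1% and 22% of genes were called. Ranges then did not overlap for Grm3 and Grm2 in WT mice and for Grm3, Grm5 and Grm4 in KO mice, against 17.9% and 20.7% of genes. With the values corrected for transcript length and GC content, limma called Grm2 and Grm4 in WT and Grm2, Grm3 and Grm4 in KO mice, where 19.4% and 20% of genes were called, and with both changes it called Grm2, Grm3 and Grm4 in WT and Grm3, Grm4 and Grm5 (0.19, adjusted p = 0.0439) in KO mice, where 22% and 23.7% were. The interaction was called for 0 of the 6 and for 0% of 17637 genes in limma, with 296 genes at an unadjusted p under 0.05. The labels give no dates of library preparation or sequencing, so age and any batch that followed it cannot be told apart.

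**Figure D4:**
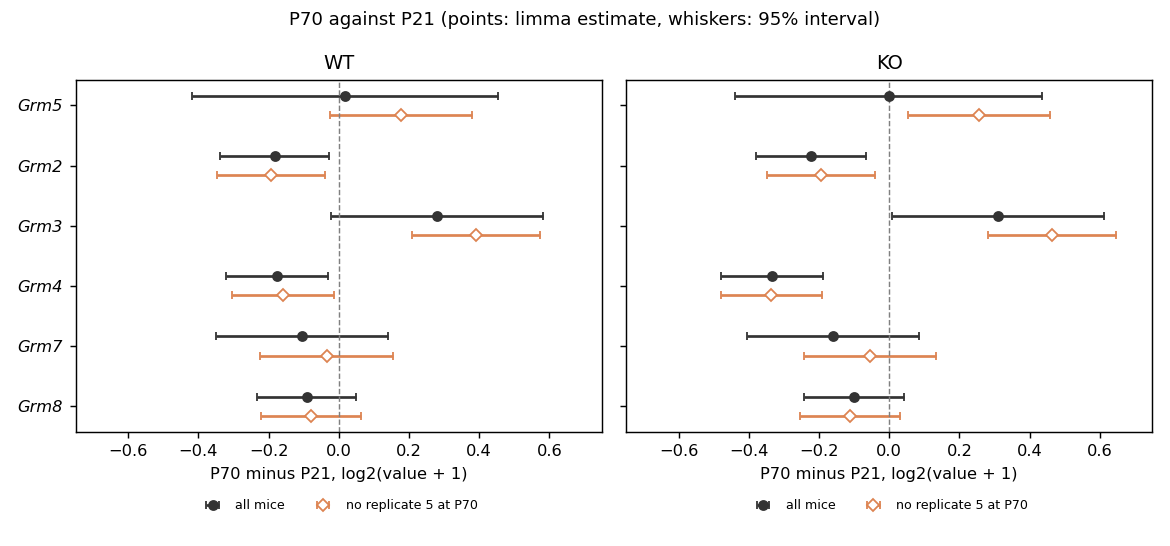
P70 minus P21 difference of each receptor on the log2(value + 1) scale (horizontal axis), with the 95% limma interval, in WT and KO mice, with all mice (filled) and without replicate 5 at P70 (open). Grm4 and Grm2 lie below 0 and Grm3 above 0 in both genotypes, and the Grm3 interval no longer reaches 0 in WT mice without replicate 5.

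The replicate 5 mice divided the receptors into 2 sets. Their level of Grm5 was 48.7% of that in the other 8 P70 mice, that of Grm3 63.3% and that of Grm7 73.7%. By contrast, Grm2 stood at 96.9%, Grm4 at 97.4% and Grm8 at 99.9%. For Grm2 the 2 mice differed, at 90.1% of the mean of the other P70 KO mice and 103.8% of that of the other P70 WT mice. Across all tested genes the same 2 mice were lower by 0.63 (median log2) for transcripts under 40% GC and by 0.37 for those at 40 to 45%, and higher by 0.37 at 55 to 60% and by 0.51 at 60% or more. Grm5, Grm3 and Grm7 lay below the median of the genes of their GC content, and so did Grm2 and Grm4, whereas Grm8 lay above it. Summed markers of cortical and hippocampal excitatory neurons were 40512 and 40097 in these mice, against 28089 to 30122 in the other P70 mice, with all 8 markers at 10 or more in every mouse. Other lists also set them apart. Choroid plexus sums were 27428 in KO and 27427 in WT, against at most 26397 and 21748 in the others. Granule cell sums (19067 and 21549) and oligodendrocyte precursor sums (5240 and 5598) were the lowest of their groups. Pan-neuronal sums, 205100 and 199017, were not above the other P70 mice. The part of GC content and of cell makeup in these receptor values was not tested.

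**Figure D5:**
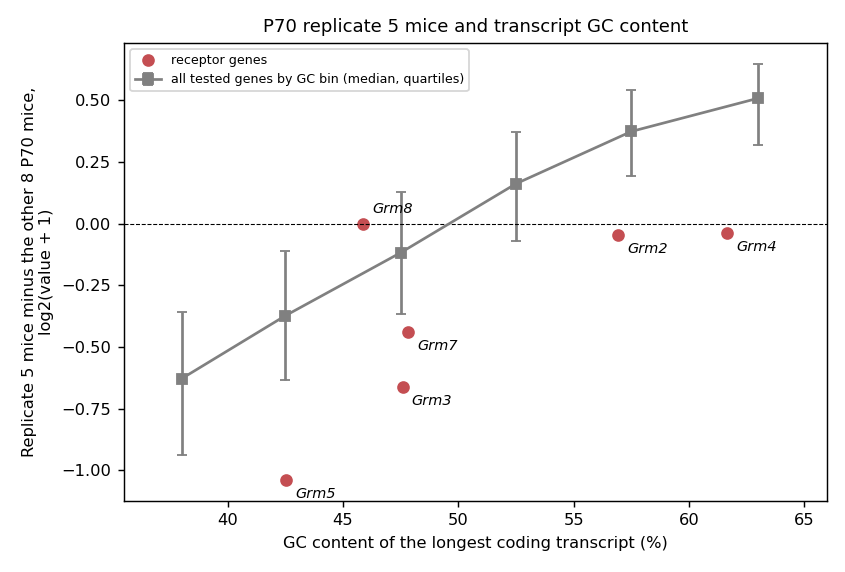
Difference between the 2 replicate 5 mice and the other 8 mice at P70 on the log2(value + 1) scale (vertical axis) against transcript GC content (horizontal axis), for the 6 receptors (red) and for all tested genes in GC bins (grey squares with quartiles, the outer bins drawn at fixed positions). Grm5, Grm3 and Grm7 lie well below 0 and Grm2, Grm4 and Grm8 close to it.

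As shares of the summed per-kb level of the 6 genes, Grm4 made up 36.2 ± 3.04% in P21 WT, 37.99 ± 2.28% in P21 KO, 33.1 ± 2.67% in P70 WT and 32.7 ± 5.50% in P70 KO mice. Grm3 made up 14.6 ± 1.02%, 14.4 ± 0.764%, 18.3 ± 1.58% and 19.3 ± 2.24% in the same order. The lowest Grm3 share at P70, 16.04%, lay just above the highest at P21, 16.01%. The replicate 5 mice had the lowest P70 Grm3 share of their genotype, at 16.04% in WT and 16.13% in KO. Without them the lowest were 18.01% and 18.9%. Their Grm3 counts, 824 and 746, were not above the P21 range of 753 to 1049. A share also depends on the other genes in the sum, and Grm5 in these mice stood at 48.7% of its level in the other P70 mice. The highest Grm4 share in P70 KO mice, 41.7%, was also from replicate 5, against at most 32.3% without it. Grm2, Grm5, Grm7 and Grm8 each differed by less than 3 percentage points between the group means.

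Over all mice, Grm5 varied most between the mice of a group among the 6 receptors. At P70 the coefficient of variation of Grm5 was 30.0% in KO and 22.5% in WT mice, and without replicate 5 it was 2.94%, the lowest of the 6 receptors in KO mice, and 9.08%, still the highest of them in WT mice. Grm5 and Grm3 deviated together over the 20 mice (Pearson r = 0.92, and 0.67 over the 18 mice without replicate 5), as did Grm5 and Grm7 (0.83 and 0.63). These points share libraries and their base composition, so the values are descriptions. The genes whose deviations were most like a receptor's were Zfp871 and Map2 for Grm5 (both 0.98), Fryl (0.83) and Gm26803 (0.78) for Grm2, and Hlf and Usp31 for Grm3 (both 0.96). In group III they were En2 (0.77) and Mir17hg (0.75) for Grm4, Tbc1d24 and Insr for Grm7 (both 0.95), and Gm48485 (0.82) and Gm41442 (0.77) for Grm8. Over the 18 mice, in the same order, the values were 0.90 and 0.91 for Grm5, 0.84 and 0.83 for Grm2, and 0.86 and 0.89 for Grm3. For group III they were 0.80 and 0.76 for Grm4, 0.89 and 0.90 for Grm7, and 0.84 and 0.76 for Grm8. The Spearman values of En2 and Mir17hg with Grm4 over the 20 mice were lower, at 0.68 and 0.49. Those of the genes named for the other receptors were 0.728 or more.

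The genes that carry receptor signals onward were taken from 4 lists of 59 genes in all, each tested in every comparison. None was called between KO and WT mice at either age or in the interaction. At P21 the smallest unadjusted p of each list belonged to Grip1, a PDZ-domain scaffold (log2 -0.19), Slc1a6, a Purkinje cell glutamate transporter (0.13), Adcy5, an adenylyl cyclase (0.073), and Plcb3, a phospholipase C (0.084), and all 4 had a limma adjusted p of 1.00. At P70, in 3 of the lists, they belonged to Grk2, a receptor kinase (0.14), Folh1, which cleaves the Grm3 agonist N-acetylaspartylglutamate (-0.24), and the G protein Gnaz (0.086), again each with a limma adjusted p of 1.00.

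With age, 2 of 13 genes of Gq and group I signalling rose in each genotype and none fell, against 11.1% of all genes called in either direction in WT and 11.9% in KO mice. Dagla, which makes the endocannabinoid 2-arachidonoylglycerol, rose by 0.27 in WT (adjusted p = 0.00359) and 0.23 in KO mice (adjusted p = 0.0116), and Prkcb, a protein kinase C, by 0.21 (adjusted p = 0.0118) and 0.18 (adjusted p = 0.0305 in limma). The inositol trisphosphate receptor Itpr1 differed by 0.46 (adjusted p = 0.0735) and 0.32 (adjusted p = 0.229), and without replicate 5 it rose by 0.57 (adjusted p = 0.000159) and 0.51 (adjusted p = 0.000389). The median difference of the list was 0.03 in both genotypes, and that of all genes 0.00 in WT and -0.01 in KO mice.

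Of the 16 genes of Gi/o proteins, adenylyl cyclases and GIRK channels, 1 rose in WT and 3 in KO mice and none fell, against 5.53% and 5.47% of all genes called higher. Gnaz, a Gi-class subunit, rose by 0.18 in WT (adjusted p = 0.0463) and 0.24 in KO mice (adjusted p = 0.00868 in limma). Adcy2 differed by 0.16 (adjusted p = 0.0661) in WT and rose by 0.17 (adjusted p = 0.0467) in KO mice, and Adcy8 differed by 0.19 (adjusted p = 0.0702) and 0.10 (adjusted p = 0.395). The list's medians were 0.11 and 0.02. With the values corrected for transcript length and GC content, 3 rose in WT and 2 in KO mice and none fell. Of all genes, 19.4% and 20% were then called in either direction, and the list's medians were 0.033 and -0.015.

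Of the scaffolds and binding partners, 4 of 16 rose in WT and 5 of 16 in KO mice and none fell, against 5.53% and 5.47% of all genes called higher. Grasp (also called Tamalin), a scaffold that binds group I receptors, rose by 0.45 in WT (adjusted p = 0.00402) and 0.54 in KO mice (adjusted p = 0.000907). Elfn2, a trans-synaptic partner of group III receptors, rose by 0.29 (adjusted p = 0.00504) and 0.20 (adjusted p = 0.0436), and Shank1, a postsynaptic density scaffold, by 0.39 (adjusted p = 0.00678) and 0.34 (adjusted p = 0.0191 in limma). The medians of the list were 0.18 in WT and 0.13 in KO mice. With the values corrected for transcript length and GC content, 6 rose and 2 fell in WT mice. In KO mice 5 rose and none fell under this correction. Of all genes, 19.4% and 20% were then called in either direction.

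Homer1, which links Grm5 to the postsynaptic scaffold, is named here after its values were seen. Without replicate 5 it averaged 6162 ± 1366 normalized counts (SD, n = 4) in P70 WT and 6790 ± 247 in P70 KO mice, against 3426 ± 326 and 3202 ± 349 (n = 5) at P21. The replicate 5 mice stood at 2644 and 2265, below all P21 mice. Its rise without them was 0.82 in WT (adjusted p = 6.4e-05) and 1.09 in KO mice (adjusted p = 2.37e-06), and with them it was 0.58 (adjusted p = 0.187) and 0.77 (adjusted p = 0.0697 in limma). Without replicate 5, 7 of the 16 genes of this list rose in each genotype and none fell, where the genes called in either direction were 21.1% of all genes in WT and 22% in KO mice.

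Genes for the supply and clearance of glutamate and N-acetylaspartylglutamate moved in both directions. In WT mice 1 of 14 rose and 1 fell, against 5.53% and 5.62% of all genes, and in KO mice 1 rose and 3 fell, against 5.47% and 6.4%. The glutaminase Gls2 rose by 0.44 (adjusted p = 0.0138) in WT and 0.38 (adjusted p = 0.0323) in KO mice, and the vesicular glutamate transporter Slc17a7 fell by 0.19 (adjusted p = 0.0270) and by 0.16 (adjusted p = 0.0493 in limma). Rimklb, a synthase of N-acetylaspartylglutamate, differed by -0.38 (adjusted p = 0.0636) in WT and -0.14 (adjusted p = 0.547) in KO mice. The medians were -0.08 and -0.14.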

How the data were processed

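RNA was extracted from whole brain of 20 male mice, 5 per group, and poly-A libraries (TruSeq RNA v2) were sequenced as paired reads. The authors estimated transcript abundance with Salmon (1.1.0 in the submitters' processing notes) on GRCm38, correcting for GC bias, summarised it per gene with tximport and deposited DESeq2-normalized counts for 19463 genes, a normalized signal and not raw counts. Whole reads could not be recovered from these values, so the count test named in the design was replaced by limma and the depth of each mouse is unknown. The authors' processing notes list R 3.6.2 and DESeq2 1.26.0.

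Symbols, exon lengths and GC content came from GENCODE M21, which matched 19447 genes. Differences were fitted by applying limma 3.58.1 (R 4.3.3, with its intensity trend) to log2(value + 1). Genes whose mean was under 10 were left out, p-values were adjusted by Benjamini-Hochberg over all remaining genes, and a gene was called at an adjusted p under 0.05. These fold changes understate changes of low genes. KO and WT were compared with the 10 mice of each age, and ages and the interaction with all 20 mice. Single receptors were also compared by exact two-sided permutation of log2 values. Overlap of groups compared the ranges of the mice. The limma step was tested on simulated data with independent noise for each gene and mouse. These lacked the shared deviation of the replicate 5 mice, so they do not check calls that turn on those mice. Correlations between genes used log2 values with group means subtracted.

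The receptors, the 4 pathway lists and the 9 marker lists were chosen with earlier results of these data known. From each pathway list the text names the 3 genes with the smallest p in the WT age comparison and the gene with the smallest p between KO and WT at each age, and for each receptor the 2 most correlated genes. Homer1 was added after its values were seen, and 1 gene that this rule names is not reported here. Alternatives were 2 other pseudocounts, 2 other filters, quantile normalization, median centring, no trend, other sets of mice in the fit, a replicate block, a stricter threshold and leaving out each mouse. Corrections for transcript length and GC content (splines with 5 degrees of freedom) and leaving out same-numbered mice together were added after seeing the data.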

Additional observations from a re-analysis of the deposited data

Results flagged for a closer look

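Of the 24 sets of 5 mice (6 receptors in 4 groups), 1 held a mouse far from the rest. Grm5 in the P70 KO mouse of replicate 5 stood at 2088 normalized counts, and its gap to the next mouse was 0.909 of the group's range, above the 95% Dixon limit for 5 values. Chance passes this limit in about 1 in 20 groups. The P70 WT mouse of the same number was also the lowest of its group for Grm5, at 2929.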

How the results depend on the processing

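Depth is unknown, so precision rests on the spread between 5 mice per group. The count of receptors called between KO and WT mice and in the interaction stayed at 0 under every alternative run. In the age comparisons 1 receptor was called in WT mice without replicate 5, 2 under the length and GC correction (Grm2, adjusted p = 0.0416, and Grm4, 0.0199) and 3 under both, and in KO mice 2, 3 (with Grm2, adjusted p = 0.0281, and Grm3, 0.0485) and 3 (limma). Leaving out replicate 3 of both genotypes at P21 gave 2 in KO mice. Leaving out 1 mouse at a time gave 0 to 1 in WT and 1 to 2 in KO mice.

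Genes called with age numbered 3731 in WT and 3879 in KO mice without replicate 5, 3416 and 3530 under the correction, 3877 and 4181 under both, and 998 and 1018 at a threshold of 0.01, and between 1386 and 1946 and between 1447 and 2578 without 1 mouse. Between KO and WT, 1 gene was called at P21 under the correction and without replicate 3, and 1 at P70 without replicate 5 (0 to 1 and 0 to 0 without 1 mouse).

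Signs of small differences turned. Between KO and WT, these were Grm2 (0.034) and Grm3 (0.0099) at P21 without replicate 3, and Grm2 (0.0081) and Grm5 (0.0099) at P70 under the correction without replicate 5. Grm5 with age became -0.017 in WT after quantile normalization and -0.059 without replicate 3, and in KO mice 0.028 after median centring, 0.25 without replicate 5, 0.065 under the correction and 0.19 under both. The interaction of Grm5 became 0.078 without replicate 5, 0.018 under the correction and 0.081 under both, that of Grm8 0.0023 after median centring and 0.0072 under the correction, and that of Grm2 0.030 under both. Leaving out 1 mouse at a time turned further signs. At P21 the KO minus WT values then ran from -0.073 to 0.035 for Grm2, -0.062 to 0.061 for Grm3, -0.16 to 0.0016 for Grm5, -0.059 to 0.055 for Grm7 and -0.055 to 0.016 for Grm8, and at P70 from -0.091 to 0.17 for Grm3, -0.26 to 0.16 for Grm5 and -0.14 to 0.047 for Grm7. The age difference of Grm5 ran from -0.059 to 0.18 in WT and -0.083 to 0.25 in KO mice. Interactions ran from -0.079 to 0.029 for Grm2, -0.080 to 0.18 for Grm3, -0.18 to 0.24 for Grm5, -0.14 to 0.050 for Grm7 and -0.044 to 0.028 for Grm8. The cause was not tested.

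The order of the receptors by level per kb kept 3 of 6 ranks at P21 and 4 at P70 when the longest coding transcript gave the length.

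The labels do not say that shared replicate numbers mark a shared litter, batch or day, and not every pair's correlation passed 0.1, so the mice were not treated as pairs. Correlations of the deviations of same-numbered KO and WT mice ran from -0.00913 to 0.260 at P21 and from 0.0749 to 0.705 at P70. The P70 maximum was that of the replicate 5 pair, and without it the highest was 0.175. At P21 and P70, 5 and 7 of 10 mice correlated best with their own number. With the replicate block 2 receptors were called with age in KO mice (Grm2 joining at an adjusted p of 0.0494 in limma) and 0 in WT mice, with 2411 and 2290 genes. Between KO and WT mice the block left 0 genes called and 732 at P21 and 610 at P70 with an unadjusted p under 0.05, against 429 and 199 without it. Block and correction together called 3 and 2 receptors and 3632 and 3499 genes, with Grm5 at 0.065 in KO mice and interactions of 0.018 for Grm5 and 0.0072 for Grm8.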
